A study of Mus musculus with 16 samples.

Results

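The comparison described here asks, gene by gene, whether the effect of losing Bhlhe40 in large peritoneal macrophages (LPM) was different after IL-4c than before it. For each gene the knockout (KO) minus wild-type (WT) difference in naive LPM was subtracted from the same difference in IL-4c-stimulated LPM. The arrays were chosen by sample title, and 10 of the 16 arrays of the series entered the difference. They were 3 WT and 3 KO arrays of naive LPM and 2 WT and 2 KO arrays of IL-4c LPM. The labels write the genotypes as Bhlhe40+/+ (WT) and Bhlhe40-/- (KO), and all mice were male C57BL/6. Naive mice were untreated. The other mice received IL-4c on days 0 and 2 and were killed on day 4. Cells were sorted from peritoneal lavage, and their age is not given in the sources used. A further 2 IL-4c LPM arrays, from mice with LysM-Cre and floxed Bhlhe40, entered no mean and are set beside the results where stated; LysM-Cre acts in myeloid cells at large, not in LPM alone.

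BHLHE40 is a basic helix-loop-helix protein that binds E-box DNA and mostly represses transcription. IL-4c, a complex of interleukin 4 with an antibody that prolongs its action, acts through the IL-4 receptor and STAT6: resident macrophages of the body cavities take on genes of alternative activation, such as Arg1 and Chil3, and divide in place. A genotype effect that is the same in both states leaves a difference of differences of 0 whatever its size, so the measure sets apart what the KO cells did differently in their response to IL-4c.

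All values are log2 array signals or differences of them. A positive difference of differences means that KO relative to WT was higher under IL-4c than in naive cells, which is the same number as the IL-4c response of KO minus that of WT. Replicate arrays correlated at 0.990 to 0.995 over probe sets (a description, as probe sets are not replicates). Gata6, the LPM regulator, was high on all 12 LPM arrays, at 8.54 to 9.26 against array medians of 4.81 to 4.93. It does not speak for all LPM genes. Of 32 tested LPM identity genes, IL-4c lowered 14 in WT and 12 in KO (19.2% and 15.4% of all tested genes). It raised 1 in WT and 5 in KO (22% and 21.9%). The genotypes differed in Bhlhe40 signal in both states. It read 8.66, 8.75 and 8.64 in naive WT and 6.79, 6.50 and 7.11 in naive KO, then 8.77 and 8.99 in IL-4c WT and 8.01 and 7.90 in IL-4c KO. The residual signal in KO was thus closer to WT under IL-4c, and the difference of differences of 0.96 (95% interval 0.44 to 1.48) had a limma adjusted p of 0.089. The sources used do not place the Bhlhe40 probe set inside or outside the deleted stretch. The labels do not say whether replicate arrays are separate mice, so the p-values speak only of the spread among them. In sorted bulk cells, fewer cells of a type and less RNA per cell cannot be told apart.

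Of 11634 genes tested, 64 (0.55%) had a difference of differences at adjusted p under 0.05. It was positive for 47 genes (0.404% of all tested) and negative for 17 (0.146%). The median over all tested genes was 0.03, and 53.5% of them lay above 0. A difference of differences adds the error of 4 group means, so its median standard error, 0.219, exceeded that of the KO minus WT difference in naive LPM (0.138) and in IL-4c LPM (0.170). The smallest called value was 0.74, and 1521 genes passed an unadjusted p under 0.05. The genotype difference itself was called for 219 genes in naive LPM (1.88%) and 422 in IL-4c LPM (3.63%), where 247 were higher (2.12%) and 175 lower (1.5%).

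**Figure D1:**
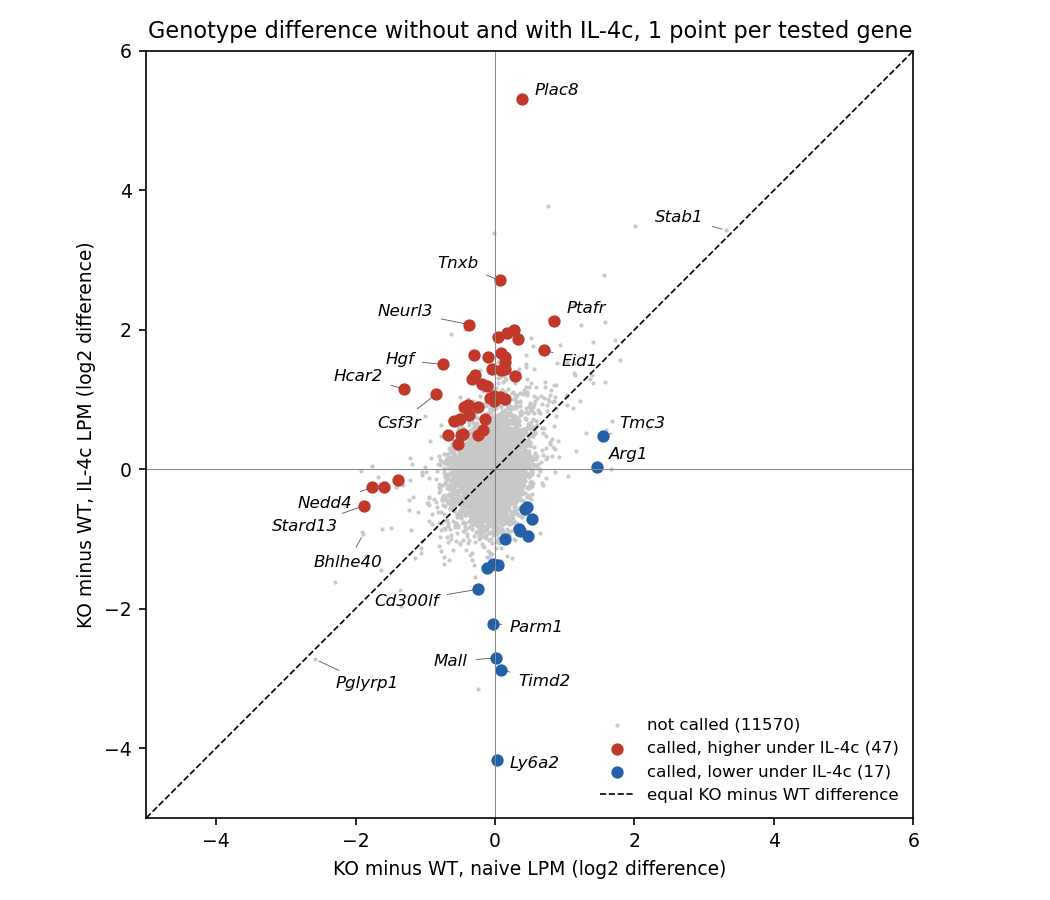
KO minus WT log2 difference of every tested gene in naive LPM (horizontal axis) against that in IL-4c LPM (vertical axis); the dashed line marks equal differences. Red points are the 47 genes with a called positive difference of differences and blue points the 17 with a called negative one. Most red points lie near 0 on the horizontal axis and above the line, such as Plac8 at 0.39 and 5.31.

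The 47 positive genes were mostly genes that IL-4c lowered in WT and lowered less, or not, in KO. IL-4c lowered 39 of the 47 in WT, where it lowered 19.2% of all tested genes, and 20 in KO, where it lowered 15.4%. Their median IL-4c response was -1.43 in WT and -0.15 in KO. The genotype difference was called only in IL-4c LPM for 34 of them, only in naive LPM for 8, in both states for 3 and in neither for 2. The 17 negative genes were the mirror image, with 13 raised by IL-4c in WT (22% of all tested genes) and 7 in KO (21.9%), and median responses of 1.74 and 0.43. These counts describe the called genes and support nothing, because the difference of differences is the KO response minus the WT response on the same arrays, and choosing genes by it favours such responses. The percentages over all genes also depend on scaling: 53.5% of the WT response calls and 58.8% of the KO ones were higher as deposited, against 44.2% and 46.5% with arrays centred on the median of tested genes.

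A small group of positive genes was raised by IL-4c in KO cells only. Plac8, a small cysteine-rich protein found in several myeloid cells, had the largest value of all (Entrez 231507, chromosome 5, 100551589 to 100572253, GRCm38.p6). It read 5.32, 5.95 and 4.97 in naive WT, 5.94, 5.75 and 5.72 in naive KO, 4.66 and 3.14 in IL-4c WT and 9.38 and 9.03 in IL-4c KO. Both IL-4c KO arrays stood far above every other KO or WT array. The difference of differences was 4.92 ± 0.72 (SE, adjusted p = 0.0041), made of an IL-4c response of -1.51 in WT and 3.41 in KO. The IL-4c WT mean was near background, so the size of the WT fall, and with it the value and rank, is not exact. Tnxb, a tenascin of the extracellular matrix, was near background in naive cells and in IL-4c WT (4.07 to 4.62) and read 7.57 and 6.52 in IL-4c KO, a difference of differences of 2.64 ± 0.35 (adjusted p = 0.0026). P2rx1, an ATP-gated ion channel, read 6.53 to 7.11 in naive cells of both genotypes, 7.05 and 6.91 in IL-4c WT and 9.11 and 8.74 in IL-4c KO (1.78 ± 0.24, adjusted p = 0.0026). The matrix metalloproteinase gene Mmp27 (1.53, adjusted p = 0.01) had the same arrangement, with 3.84 to 4.60 on the other KO and WT arrays and 6.26 and 5.70 in IL-4c KO. Its naive and IL-4c WT means were near background. Ece1, which makes endothelin, was raised by IL-4c in both genotypes and further in KO, with 5.88 and 6.10 in WT and 7.65 and 7.55 in KO (1.71 ± 0.24, adjusted p = 0.0037). Plac8 is also a marker of monocytes, small peritoneal macrophages and dendritic cells. Of the 10 tested markers of those cells only Plac8 was called (0.55% of all tested genes). Of the 10, 5 lay above 0 (53.5% of all tested genes), with a median of -0.07. Their mean level includes Plac8 itself, so it does not show what the other markers did. It was 4.93 to 5.13 on naive arrays, 5.62 and 5.22 in IL-4c WT and 5.98 and 5.88 in IL-4c KO. Ccr2, the monocyte chemokine receptor, had the lowest difference of differences of these markers (-0.58). It read 4.71 and 4.06 in IL-4c WT and 4.21 and 3.86 in IL-4c KO, below the array medians. The dendritic cell gene Clec9a read 2.78 to 3.15 on those 4 arrays, near background. Neither gene speaks for the other markers. In IL-4c LPM, KO minus WT lay above 0 for 7 of the 10 tested markers, Plac8 among them. The median was 0.08, against -0.02 over all tested genes.

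The promoter of Plac8 is shown because it is the gene with the largest value and holds a letter match to the STAT6 motif. It spans chr5:100563097-100563346 on the minus strand of GRCm38.p6 (RefSeq), the 250 bases before the start that the RefSeq table gives, which lies within the gene's full span, and is written 5′ to 3′, with the match to the STAT6 motif (TTC, any 4 bases, GAA) in capitals.
Plac8 promoter: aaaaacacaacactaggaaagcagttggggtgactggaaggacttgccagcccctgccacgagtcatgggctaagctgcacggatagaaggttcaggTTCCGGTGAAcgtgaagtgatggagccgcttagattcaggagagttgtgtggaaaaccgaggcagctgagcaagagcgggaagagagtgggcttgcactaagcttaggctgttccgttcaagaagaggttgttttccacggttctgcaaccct
This motif, which reads the same on both strands, was present in 1 of 39 positive genes with a promoter sequence (2.6%), in 2 of 14 negative genes (14.3%) and in 523 of 9352 tested genes (5.6%). A match is a run of letters and not a measured binding site.

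**Figure D2:**
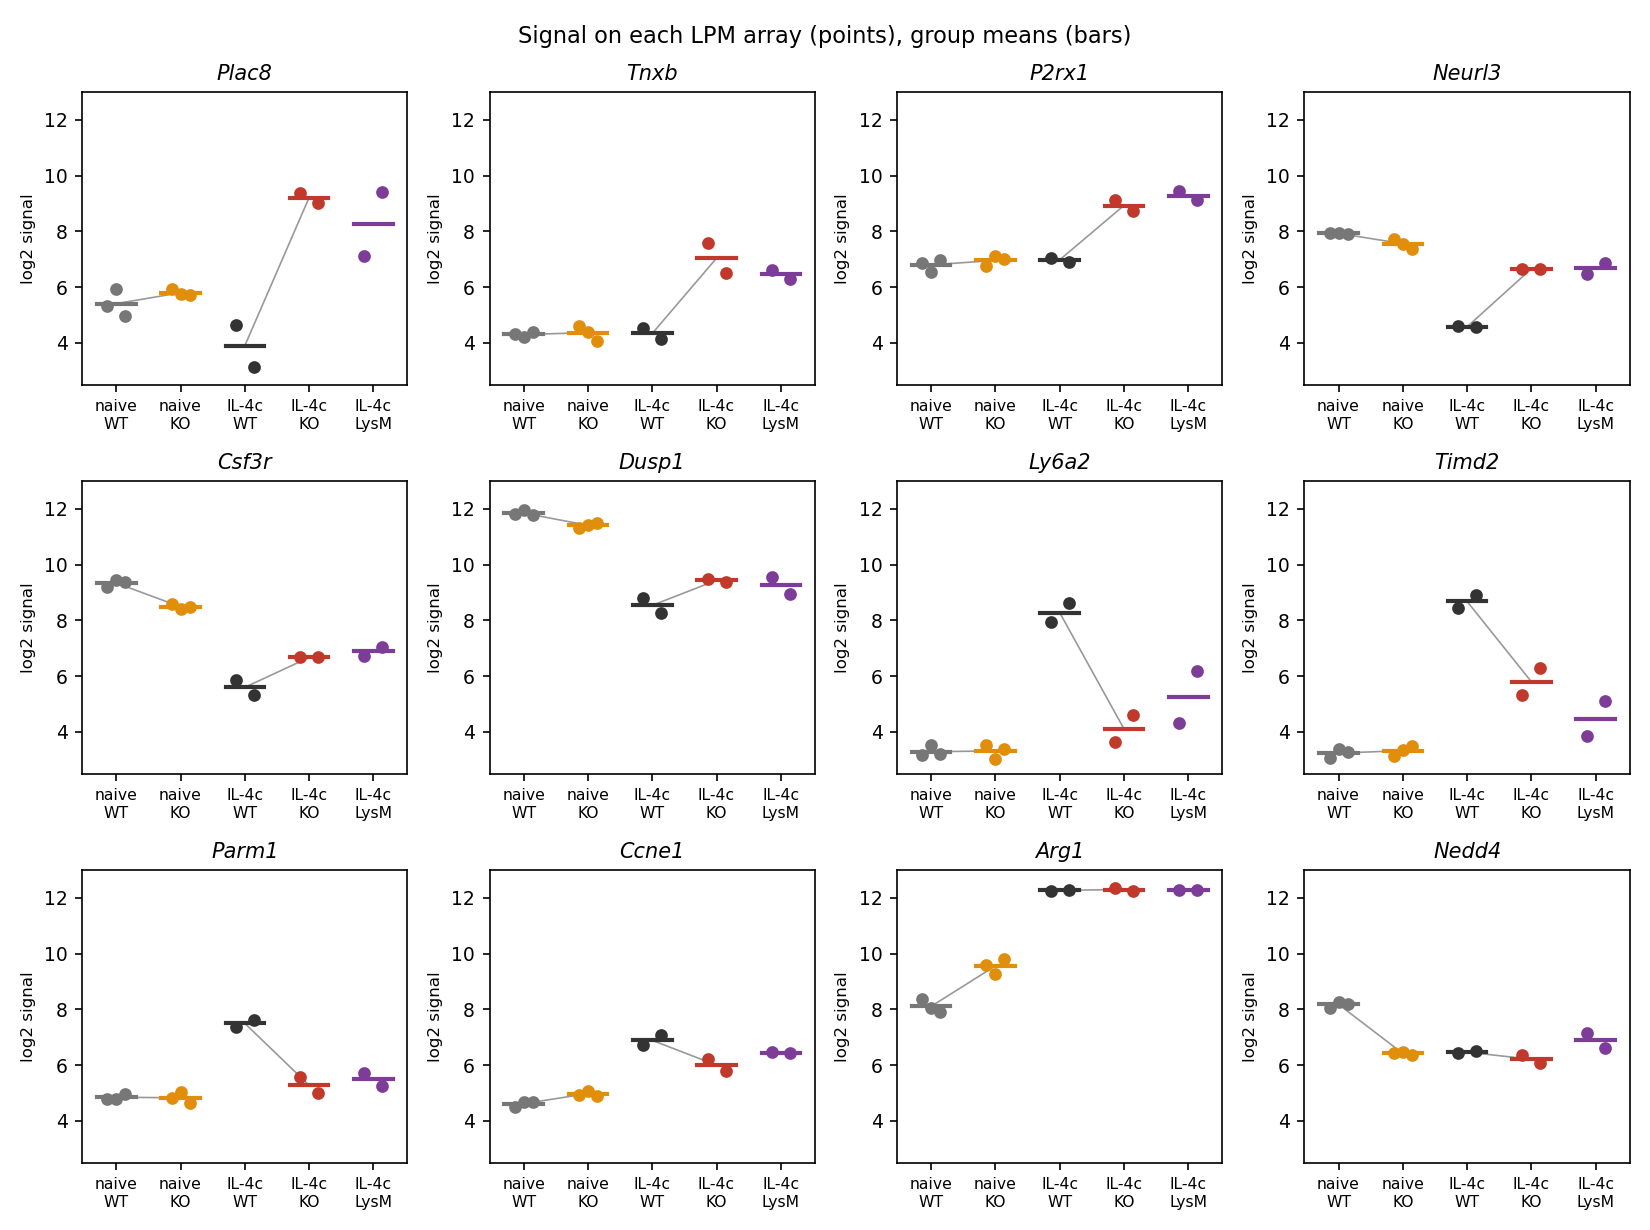
Log2 signal on each array for 12 called genes (vertical axis) in naive WT, naive KO, IL-4c WT, IL-4c KO and IL-4c LysM LPM (horizontal axis); points are arrays, bars are group means and grey lines join WT and KO means. Plac8 and Tnxb stand high in IL-4c KO and LysM, Ly6a2 and Timd2 stand highest in IL-4c WT, and KO minus WT is 1.46 for Arg1 and -1.76 for Nedd4 in naive cells and 0.03 and -0.26 in IL-4c cells.

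The larger share of positive genes, 39 of 47, were genes of naive LPM that IL-4c turned down in WT and turned down less, left or raised in KO. Neurl3, a ubiquitin ligase induced by inflammatory stimuli, had the smallest adjusted p (Entrez 214854, chromosome 1, 36264602 to 36274674, GRCm38.p6). It read 7.94, 7.93 and 7.91 in naive WT, 7.74, 7.55 and 7.38 in naive KO, 4.59 and 4.57 in IL-4c WT and 6.65 and 6.66 in IL-4c KO. The groups did not overlap under IL-4c, and the difference of differences was 2.45 ± 0.23 (adjusted p = 0.00022). Hgf, hepatocyte growth factor, fell to 3.45 and 3.16 in IL-4c WT and stood at 5.06 and 4.55 in KO, from 5.36 to 6.46 in naive cells (2.24 ± 0.33, adjusted p = 0.0041). Rassf2, a Ras-binding protein, read 6.72 to 7.41 in naive cells, 4.63 and 4.37 in IL-4c WT and 6.35 and 6.45 in IL-4c KO (1.84, adjusted p = 0.0026). The IL-4c WT signals of Neurl3, Hgf and Rassf2 lay below the array medians, where a fall is compressed, so the size of the WT response is not exact. The integrin subunit gene Itga9 (1.94), the ubiquitin ligase gene Rnf144b (1.72), the kinase gene Dmpk (1.64), the interferon-inducible gene Ifi207 (1.58), the small GTPase gene Rhob (1.48), the immunoglobulin superfamily gene Igsf6 (1.42) and the Rac activator gene Dock4 (1.39) had the same form: IL-4c lowered each in WT by 1.37 to 2.36, and in KO only Igsf6 was called lower (-0.94). The IL-4c WT signal of Dock4, 4.01 on both arrays, was near background, so its WT fall is not exact either.

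Csf3r, the G-CSF receptor, was the 1 gene whose genotype difference was called in both states with opposite signs (Entrez 12986, chromosome 4, 126023441 to 126044975). It read 9.20, 9.44 and 9.38 in naive WT and 8.58, 8.42 and 8.47 in naive KO, then 5.88 and 5.32 in IL-4c WT and 6.67 and 6.67 in IL-4c KO. KO arrays were thus below WT before IL-4c (-0.85, adjusted p = 0.011) and above WT after it (1.07, adjusted p = 0.005), with no overlap in either state. The difference of differences was 1.92 ± 0.24 (adjusted p = 0.0026). Csf3r also marks neutrophils. Of 6 tested neutrophil markers 5 lay above 0 (53.5% of all tested genes), with a median of 0.22. Their mean level includes Csf3r itself, so it does not show what the other markers did. It was 5.09 to 5.51 in naive cells, 4.65 and 4.23 in IL-4c WT and 4.83 and 4.56 in IL-4c KO. The neutrophil receptor Cxcr2 read 2.74 to 3.52 and the neutrophil collagenase Mmp8 2.69 to 3.53 on the 10 arrays, both near background. Both are among 11 listed markers and do not speak for the others.

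Immediate early genes, which cells switch on within minutes of a stimulus or of tissue handling, supplied 5 of the positive genes. Of 27 tested members, 5 were called positive and 0 negative, against 0.404% and 0.146% of all tested genes. The median was 0.31, and 22 of 27 lay above 0 (53.5% of all tested genes). After quantile normalization was applied again, 17 of 27 did (median 0.22). Dusp1, a phosphatase that switches off MAP kinases, read 11.81, 11.96 and 11.77 in naive WT, 11.31, 11.41 and 11.50 in naive KO, 8.81 and 8.28 in IL-4c WT and 9.50 and 9.37 in IL-4c KO. The gene was lower under IL-4c in both genotypes and lowest in IL-4c WT. Its difference of differences was 1.33 ± 0.24 (adjusted p = 0.019). Ier3, an NF-kB target that protects from cell death, read 9.61 to 9.84 in naive cells, 8.62 and 8.49 in IL-4c WT and 10.20 and 9.74 in IL-4c KO, so that IL-4c lowered it in WT alone (1.33 ± 0.20, adjusted p = 0.0042). Jun, a subunit of AP-1, read 7.40 and 7.52 in IL-4c WT and 8.81 and 7.93 in IL-4c KO, from 9.03 to 9.64 in naive cells (1.30 ± 0.26, adjusted p = 0.034). Zfp36, which destabilises cytokine mRNAs, had a value of 1.15 (adjusted p = 0.013), and Nfkbiz, a nuclear partner of NF-kB, 1.13 (adjusted p = 0.043). Fos, the other AP-1 subunit, had the same value as Jun, 1.30, with a wider spread (95% interval 0.57 to 2.03, adjusted p = 0.095). The list averaged 7.68 to 7.77 on naive WT arrays, 7.47 to 7.59 on naive KO, 6.86 and 6.88 in IL-4c WT, and 7.22 and 6.99 in IL-4c KO replicates 1 and 2. Of the 5 calls, 1 was left without IL-4c KO replicate 1.

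The Dusp1 promoter is shown as the example of an E-box, the kind of site that BHLHE40 binds, in a positive gene. It spans chr17:26508473-26508722 on the minus strand of GRCm38.p6, and capitals mark CACGTG.
Dusp1 promoter: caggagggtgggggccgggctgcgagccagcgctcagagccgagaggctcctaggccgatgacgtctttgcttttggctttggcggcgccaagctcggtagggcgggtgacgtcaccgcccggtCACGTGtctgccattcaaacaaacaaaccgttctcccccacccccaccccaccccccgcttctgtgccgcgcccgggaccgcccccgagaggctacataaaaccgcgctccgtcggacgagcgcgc
CACGTG, which reads the same on both strands, occurred in 3 of 39 positive promoters (7.7%), 2 of 14 negative ones (14.3%) and 931 of 9352 tested ones (10%). The AP-1 motif TGAGTCA, searched on both strands, occurred in 2 positive promoters (5.1%), 0 negative ones and 382 tested ones (4.1%).

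Complement and phagocytic receptor genes, by which macrophages bind and take up particles, also held positive calls. Of 25 tested, 2 were called positive and 0 negative (0.404% and 0.146% of all tested genes), 21 lay above 0 (53.5% of all tested genes), and the median was 0.39. The median was 0.24 without IL-4c KO replicate 1 and 0.62, with 5 calls, without replicate 2. The list's median IL-4c response was -0.66 in WT and -0.02 in KO. C1qa, a chain of complement C1q, read 11.18 to 11.52 in naive cells, 10.64 and 10.67 in IL-4c WT and 11.72 and 11.54 in IL-4c KO. IL-4c lowered it in WT and not in KO, and the value was 0.99 ± 0.20 (adjusted p = 0.038). Fcgr3, an Fc receptor for IgG, fell in WT from 11.01 to 11.15 down to 10.16 and 9.98, whereas KO arrays read 10.56 to 10.62 before and 10.76 and 10.40 after (0.97 ± 0.18, adjusted p = 0.018). Fcgr4, a related receptor, had the largest value of the list, 1.36 (95% interval 0.68 to 2.05), at an adjusted p of 0.071. Both calls were lost without IL-4c KO replicate 1, IL-4c WT replicate 2 or naive WT replicate 2. C1qa also lost its call under 4 of 11 alternatives other than leaving out 1 array.

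Transcriptional regulators were among the positive genes as well. Cebpa, a factor of myeloid differentiation, read 8.68 to 9.11 in naive cells, 7.46 and 7.13 in IL-4c WT and 8.34 and 8.30 in IL-4c KO (1.09 ± 0.23, adjusted p = 0.039). It was the 1 called gene among 18 tested Id, E-protein and related regulators, where 0.55% of all tested genes were called. Klf9 (1.07) and Bach1 (0.96), named after their values were seen, were lowered by IL-4c in WT and raised in KO. Klf9 read 6.20 and 6.32 in IL-4c WT and 7.28 and 7.36 in IL-4c KO, from 6.85 to 6.99 in naive cells. Bach1, a repressor of haem and antioxidant genes, read 7.51 and 7.34 against 8.35 and 8.59. The remaining regulators set for description were not called: Maf (0.31, adjusted p = 0.65), Myc (-0.38, adjusted p = 0.60), Klf2 (0.20), Klf4 (0.03), Gata6 (0.18, adjusted p = 0.82), Id2 (-0.61, adjusted p = 0.48), Irf4 (0.18), Stat6 (0.44) and the paralog Bhlhe41 (-0.32).

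The largest negative values belonged to genes that IL-4c raised in WT and raised less, or without a call, in KO. Ly6a2, a relative of the surface antigen Sca-1 (Entrez 546643, chromosome 15, 75131292 to 75135128), read 3.03 to 3.54 in naive cells of both genotypes, 7.93 and 8.63 in IL-4c WT and 3.64 and 4.59 in IL-4c KO. Its naive signal was near background, so the size of the rise is not exact. The response to IL-4c was 4.99 in WT and 0.79 in KO, where it was not called (adjusted p = 0.13), and the difference of differences was -4.20 ± 0.57 (adjusted p = 0.0026). Ly6 genes are close relatives of each other, and signal from related transcripts on this probe set was not tested. Timd2, a T-cell immunoglobulin and mucin receptor that binds ferritin, read 3.05 to 3.49 in naive cells, 8.46 and 8.90 in IL-4c WT and 5.32 and 6.29 in IL-4c KO. Both genotypes responded, KO less so, and the difference of differences was -2.97 ± 0.42 (adjusted p = 0.0037). The naive signal of Timd2 was near background too, so the size of its rise is not exact. Mall, a raft-associated membrane protein, read 4.80 to 5.35 in naive cells, 9.82 and 10.40 in IL-4c WT and 7.89 and 6.93 in IL-4c KO (-2.73 ± 0.47, adjusted p = 0.013). Parm1, a mucin-like protein, read 4.63 to 5.04 in naive cells, 7.36 and 7.63 in IL-4c WT and 5.57 and 4.99 in IL-4c KO, where its response was not called (-2.19 ± 0.26, adjusted p = 0.0021). Cd300lf, an inhibitory receptor for lipids (-1.48, adjusted p = 0.023), also responded in WT alone, with 5.69 and 6.47 in IL-4c WT against 4.61 and 4.10 in IL-4c KO. Its naive KO and IL-4c KO means were near background.

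Among the other negative genes was Irs1, the insulin receptor substrate that also binds the IL-4 receptor. Irs1 read 3.42 to 3.72 in naive cells, 5.03 and 5.58 in IL-4c WT and 4.08 and 3.78 in IL-4c KO. All but the IL-4c WT values were near background. The difference of differences was -1.42 ± 0.25 (adjusted p = 0.015), and the second probe set of Irs1 gave -0.86. Plin1, the coat protein of lipid droplets, read 4.80 to 5.14 in naive cells, 6.69 and 6.94 in IL-4c WT and 5.26 and 5.65 in IL-4c KO (-1.33 ± 0.26, adjusted p = 0.028). The list of lipid uptake, PPAR and fatty acid oxidation genes held no called member of 20 and had a median of -0.01, which turned to 0.01 with arrays centred on their medians. Traf3ip3, an adaptor protein, differed in form. IL-4c did not move it in WT (4.96 and 5.24, from 5.13 to 5.30) and lowered it in KO to 3.62 and 3.74. The difference of differences was -1.30 ± 0.20 (adjusted p = 0.0069). Its IL-4c KO signal was near background, so the size of the fall is not exact. Ccdc180 (-1.25), Dennd2c (-1.0) and Tmc3 (-1.08) were called too. For Ccdc180 the array holds 27 probe sets that gave values from -1.24 to 0.79, so its call rests on the probe set chosen.

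The promoters of Timd2 and Irs1 are shown as examples of negative genes that hold the STAT6 motif and the E-box. Among the other negative genes, Orc1 also held a STAT6 motif match and Ccdc180 a CACGTG. Timd2 spans chr11:46698831-46699080 and Irs1 chr1:82291440-82291689, both on the minus strand of GRCm38.p6 and the first within the full span of its gene, with the STAT6 motif match in capitals in the first and CACGTG in the second.
Timd2 promoter: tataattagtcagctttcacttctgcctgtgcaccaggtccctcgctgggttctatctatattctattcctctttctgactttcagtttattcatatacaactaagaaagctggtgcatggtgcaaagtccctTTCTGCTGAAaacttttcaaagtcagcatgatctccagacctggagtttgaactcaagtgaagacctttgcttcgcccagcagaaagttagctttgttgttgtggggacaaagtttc
Irs1 promoter: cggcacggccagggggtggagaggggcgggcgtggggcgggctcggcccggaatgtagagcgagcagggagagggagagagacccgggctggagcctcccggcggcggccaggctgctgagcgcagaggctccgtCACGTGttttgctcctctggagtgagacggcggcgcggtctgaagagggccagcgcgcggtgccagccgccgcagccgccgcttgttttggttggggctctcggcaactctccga

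The estimated IL-4c response of every tested member of the S phase and G2/M lists was smaller in KO than in WT, though only 1 of these differences passed the test. Of 40 S phase and DNA replication genes tested, 0 lay above 0 (53.5% of all tested genes). Among them 1 was called negative (0.146% of all tested genes), with a median of -0.59. Of 41 genes of G2/M and mitosis, 0 lay above 0 and 0 were called, against the same shares, with a median of -0.61. The median IL-4c response was 1.64 in WT and 1.02 in KO for S phase, and 2.14 and 1.49 for G2/M. Ccne1, cyclin E1, which drives entry into S phase, read 4.49, 4.69 and 4.69 in naive WT, 4.94, 5.09 and 4.91 in naive KO, 6.71 and 7.07 in IL-4c WT and 6.21 and 5.80 in IL-4c KO. KO arrays were above WT in naive cells and below WT under IL-4c, and the difference of differences was -1.24 ± 0.24 (adjusted p = 0.023). Outside these lists, called genes with a part in the cell cycle were Orc1, a subunit of the origin recognition complex (-1.13, adjusted p = 0.013), Ercc6l, a mitotic helicase (-1.42, adjusted p = 0.013), and E2f7, a repressor of E2F targets (-1.20, adjusted p = 0.022). Orc1 read 3.66 to 4.03 in naive cells, 5.35 and 5.40 in IL-4c WT and 4.33 and 4.43 in IL-4c KO. All but its IL-4c WT values were near background, so the size of its difference is not exact. E2f7 read 6.48 and 6.73 in IL-4c WT and 5.51 and 5.98 in IL-4c KO, from 4.91 to 5.43 in naive cells. The largest values that missed the threshold were those of the primase gene Prim1 (-1.56, adjusted p = 0.065) and the mitotic kinase gene Aurka (-1.15, adjusted p = 0.059). Mki67, the proliferation antigen, had a value of -0.43 (95% interval -1.24 to 0.39, adjusted p = 0.69).

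The naive KO arrays were uneven for these genes. The S phase list averaged 5.61 to 5.71 on naive WT arrays and 5.59, 5.55 and 5.95 on naive KO replicates 1 to 3, then 7.19 and 7.56 in IL-4c WT and 6.67 and 6.73 in IL-4c KO. The G2/M list averaged 5.57 to 5.62 in naive WT, 5.27, 5.29 and 5.99 in naive KO, 7.61 and 7.85 in IL-4c WT and 7.03 and 7.02 in IL-4c KO. Naive KO replicate 3 stood above the other naive arrays in both lists. Without it the medians were -0.47 for S phase and -0.32 for G2/M, with 2 of 41 G2/M genes above 0. Without IL-4c WT replicate 2 they were -0.39 and -0.47. Under IL-4c alone, a comparison without any naive array, KO minus WT had medians of -0.67 in both lists, with 0 genes above 0 in either, and in naive cells 0.03 and -0.09. Without naive KO replicate 3 the naive medians were -0.06 for S phase and -0.33 for G2/M. Genes within a list are not independent replicates. Genes of G1 control had a median of -0.05 over 20, with 9 above 0 and no call (53.5% and 0.55% of all tested genes). Its lowest member was E2f2, an E2F activator (-1.13, adjusted p = 0.082), and its highest Ccnd1, cyclin D1 (0.70), with cyclin D2, Ccnd2, at 0.36.

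The E2f7 promoter is shown as the negative gene with an E2F motif. It spans chr10:110745189-110745438 on the plus strand of GRCm38.p6, with the reverse complement of TTTCCCGC in capitals.
E2f7 promoter: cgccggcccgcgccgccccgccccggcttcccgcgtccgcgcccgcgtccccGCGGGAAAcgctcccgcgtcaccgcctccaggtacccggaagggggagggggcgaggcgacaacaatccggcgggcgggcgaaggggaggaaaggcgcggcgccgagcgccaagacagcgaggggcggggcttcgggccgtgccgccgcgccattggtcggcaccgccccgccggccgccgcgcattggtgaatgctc
TTTGGCGC or TTTCCCGC on either strand occurred in 1 of 14 negative promoters (7.1%), 1 of 39 positive ones (2.6%) and 277 of 9352 tested ones (3.0%).

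**Figure D3:**
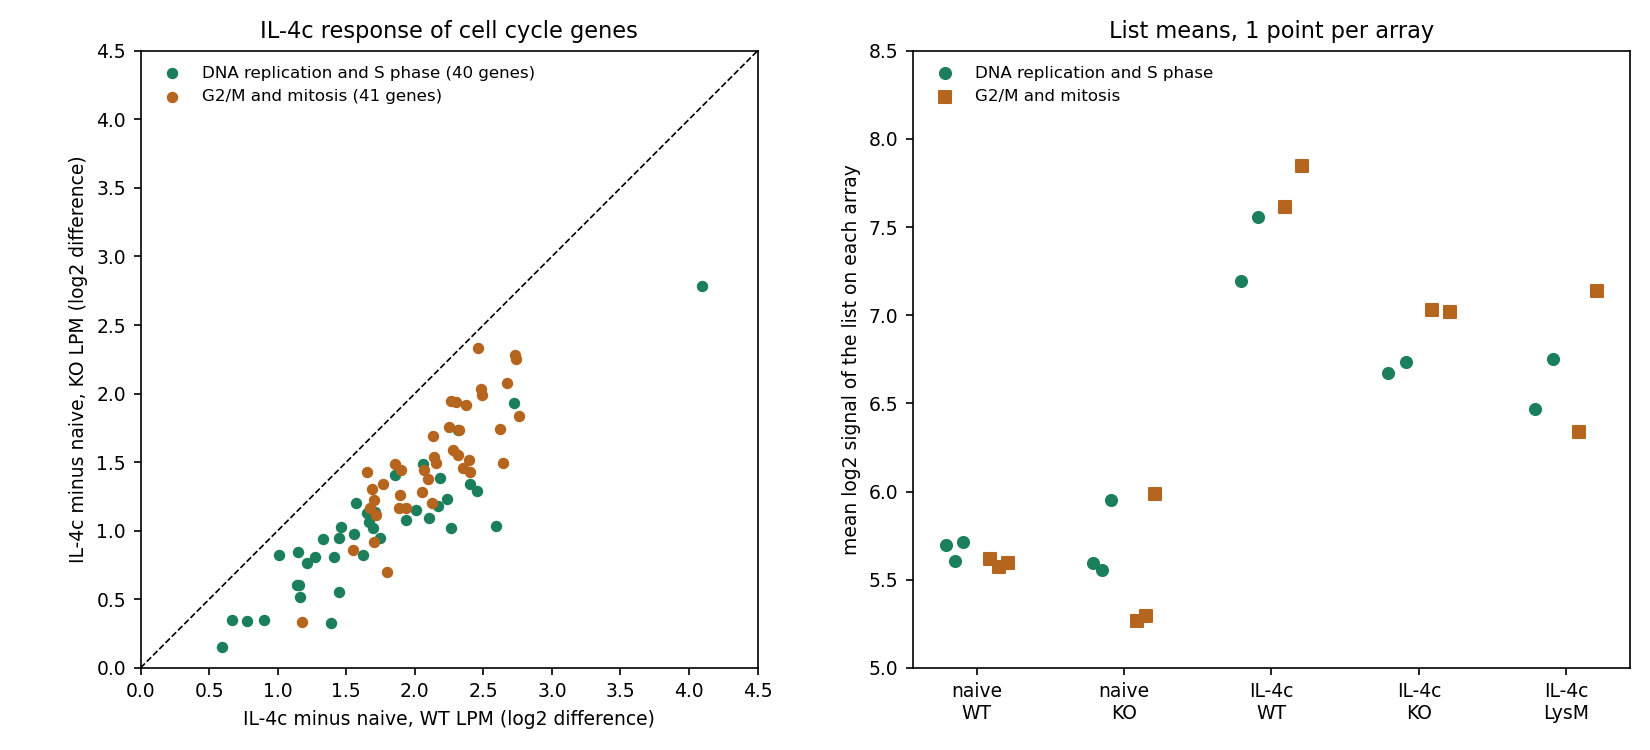
Left, IL-4c response (log2) of 40 S phase and 41 G2/M genes in WT (horizontal axis) and KO (vertical axis) with the line of equal response; every point lies below the line. Right, mean log2 signal of each list on each array, where naive KO replicate 3 stands apart at 5.95 for S phase and 5.99 for G2/M.

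In 10 genes called for the difference of differences, the genotype difference was called only in naive cells. Nedd4, a ubiquitin ligase, read 8.05, 8.27 and 8.21 in naive WT and 6.42, 6.47 and 6.37 in naive KO, then 6.45 and 6.50 in IL-4c WT and 6.35 and 6.08 in IL-4c KO. WT cells under IL-4c thus read like KO cells before it. The KO minus WT difference was -1.76 in naive and -0.26 in IL-4c cells, and the difference of differences 1.50 ± 0.21 (adjusted p = 0.0037). Hcar2, a receptor for ketone bodies and niacin, was the largest of this kind (2.45 ± 0.46, adjusted p = 0.021). It read 6.06 to 6.45 in naive WT, 4.72 to 5.13 in naive KO, 4.26 and 4.29 in IL-4c WT and 6.00 and 4.86 in IL-4c KO. Its KO minus WT difference changed sign, from -1.30 in naive to 1.15 in IL-4c cells (limma adjusted p = 0.089). The IL-4c WT signal of Hcar2 was near background. Stard13 (1.36), Stk26 (1.34), Vnn3 (1.23), Slc31a1 (1.16) and Mfsd6 (0.89), named to complete the count after their values were seen, and Fcgr3 were the others on the positive side. The difference also changed sign in Fcgr3 (-0.46 naive, 0.51 IL-4c), Slc31a1 (-0.68, 0.49) and Mfsd6 (-0.53, 0.36). In these genes the missing IL-4c call does not mean that the genotypes were alike. Stk26 and Vnn3 were near background in both genotypes under IL-4c, where a difference would not show. The IL-4c means of Stard13 were 4.43 in WT, below the array medians, and 3.91 in KO, near background. Its IL-4c difference can therefore be compressed as well. On the negative side Tmc3, a transmembrane channel-like protein, read 6.37 to 6.41 in naive KO against 4.73 to 4.93 in naive WT and 4.06 to 4.87 under IL-4c. Its IL-4c WT mean was near background. Arg1, arginase 1, the textbook enzyme of alternative activation, read 8.36, 8.05 and 7.91 in naive WT and 9.61, 9.26 and 9.81 in naive KO, and 12.25 and 12.30 in IL-4c WT and 12.36 and 12.24 in IL-4c KO. KO cells therefore started 1.46 higher and ended 0.03 from WT, a difference of differences of -1.43 ± 0.25 (adjusted p = 0.013). The highest signal of any probe set was 13.67 to 13.73 on these IL-4c arrays, so Arg1 was near the top of the range, where differences can be compressed.

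The other genes of alternative activation were mostly not called. Of 37 tested, Arg1 and Timd2 were called negative and 0 positive (0.146% and 0.404% of all tested genes). Above 0 lay 21 (53.5% of all tested genes), and the median was 0.09. The median had no stable sign: it was -0.04 (17 above 0) without IL-4c KO replicate 1 and 0.17 (22 above 0, 2 called positive) without replicate 2. Chil3, a chitinase-like protein, mirrored Arg1: it read 6.50 to 7.20 in naive WT, 3.81 to 6.09 in naive KO and 12.39 to 12.55 in all IL-4c WT and KO arrays (1.81, 95% interval 0.58 to 3.04, adjusted p = 0.17). Retnla, a secreted resistin-like protein, had a value of -0.33 (95% interval -0.98 to 0.31) and the lectin gene Mgl2, chosen after its values were seen, -0.53 (-1.27 to 0.21). Ucp1, the uncoupling protein, was raised in WT to 8.93 and 9.74 and read 5.37 and 7.0 in IL-4c KO, from 3.76 to 4.62 in naive cells. Its value of -2.90 (95% interval -4.26 to -1.54) had an adjusted p of 0.059. It passed under 4 of 21 alternatives: with the replicate block (adjusted p = 0.0035), with array weights (adjusted p = 0.04), on the 10 arrays alone (adjusted p = 0.045) and without IL-4c KO replicate 2 (-3.71, adjusted p = 0.0062). Without IL-4c KO replicate 1 it was -2.08 (adjusted p = 0.23). The 15 tested genes of STAT6 signalling had a median of 0.11 and no call.

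Chemokine genes had large values with large error. Ccl2, which recruits monocytes through CCR2, read 7.84 to 8.31 in naive WT, 7.83 to 8.32 in naive KO, 5.09 and 4.64 in IL-4c WT and 9.67 and 6.81 in IL-4c KO. Both IL-4c KO arrays lay above both IL-4c WT arrays, but the KO arrays were far apart from each other. The difference of differences was 3.40 (95% interval 1.46 to 5.34, adjusted p = 0.10), and Ccl7, a second CCR2 ligand, had 3.01 (1.05 to 4.98, adjusted p = 0.15). Both values hung on single arrays. Ccl2 was 1.96 (adjusted p = 0.38) without IL-4c KO replicate 1 and 4.83 (adjusted p = 0.0043) without replicate 2, and Ccl7 was 1.70 (adjusted p = 0.52) and 4.33 (adjusted p = 0.016). Of the 25 tested chemokine genes 0 were called and 18 lay above 0 (0.55% and 53.5% of all tested genes). The list median of 0.52 was 0.04 without IL-4c KO replicate 1. Nr1d1, a repressor of the circadian clock, was likewise uneven: IL-4c KO replicates 1 and 2 read 7.13 and 9.26, against 6.17 and 6.34 in IL-4c WT (2.58, adjusted p = 0.081).

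Some genes had a called genotype effect in both states. Of 46 genes whose KO minus WT difference was called in naive and in IL-4c LPM with the same sign, 2 were called for the difference of differences, Ptafr (1.28) and Eid1 (1.0). Requiring a call of the same sign in both states favours genes whose effects are alike, so this count says nothing of genotype effects at large: the median size of the difference of differences was 0.22 in these 46 genes, 0.51 in the 219 called in naive LPM and 0.71 in the 422 called in IL-4c LPM. Ptafr, the platelet-activating factor receptor, was higher in KO by 0.84 in naive and by 2.13 in IL-4c cells. The 4 genes given next were chosen after their values were seen, as large effects in both states. Stab1, a scavenger receptor, was higher in KO by 3.31 in naive and 3.43 in IL-4c cells, with a difference of differences of 0.11 (95% interval -0.49 to 0.71). Pglyrp1, a peptidoglycan-binding protein, was lower in KO by 2.58 and 2.73 (-0.15, interval -1.19 to 0.89). Folr2, a folate receptor, gave 1.73 and 1.85 (0.12, interval -0.69 to 0.93), and the bacterial lipopeptide receptor Tlr1 1.79 and 1.56 (-0.23, interval -0.80 to 0.35). These intervals do not show that the effects were equal. Those of Pglyrp1, Folr2 and Tlr1 reach sizes at which other genes were called. That of Stab1 ends at 0.71, a little under the smallest called value of 0.74, and still holds differences other than 0. Lyve1, the hyaluronan receptor, had a wider interval, with a value of -1.60 (interval -2.66 to -0.54, adjusted p = 0.16).

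Over all tested genes, 53.5% lay above 0 and 0.55% were called, 0.404% positive and 0.146% negative. Among the other gene groups, 0 members were called in interferon-stimulated genes (20 of 22 above 0, median 0.37) and LXR targets and cholesterol efflux (13 of 14, median 0.45). LPM identity genes (27 of 32, median 0.21) and MHC class II genes (7 of 9, median 0.26) held no call either. Of 27 Maf-associated resident macrophage genes 1 was called, C1qa, with 21 above 0 and a median of 0.29. Without IL-4c KO replicate 1 that median was 0.14 (17 above 0, 0 called) and without replicate 2 it was 0.46 (2 called). Under the same omissions interferon-stimulated genes had medians of 0.21 and 0.64, and LXR targets had 0.15 without replicate 1. Ribosome biogenesis (3 of 23 above 0, median -0.25), amino acid stress genes that depend on ATF4 (5 of 19, median -0.27) and oxidative phosphorylation (9 of 30, median -0.11) lay mostly below 0 with no call. Sterol synthesis (14 of 20, median 0.12), glycolysis (7 of 18, median -0.03) and inflammatory cytokines (10 of 15, median 0.05) lay on both sides, with no call, and single arrays turned the sign of all 3 medians. Granule and antimicrobial proteins had 1 call, Plac8 (8 of 11 above 0, median 0.48), and circadian clock genes none (10 of 15, median 0.27). The markers of B cells (median 0.08 over 7), T and NK cells (-0.09 over 4), eosinophils (-0.28 over 3), mast cells (-0.03 over 3) and mesothelium and fibroblasts (-0.05 over 5) held no call.

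**Figure D4:**
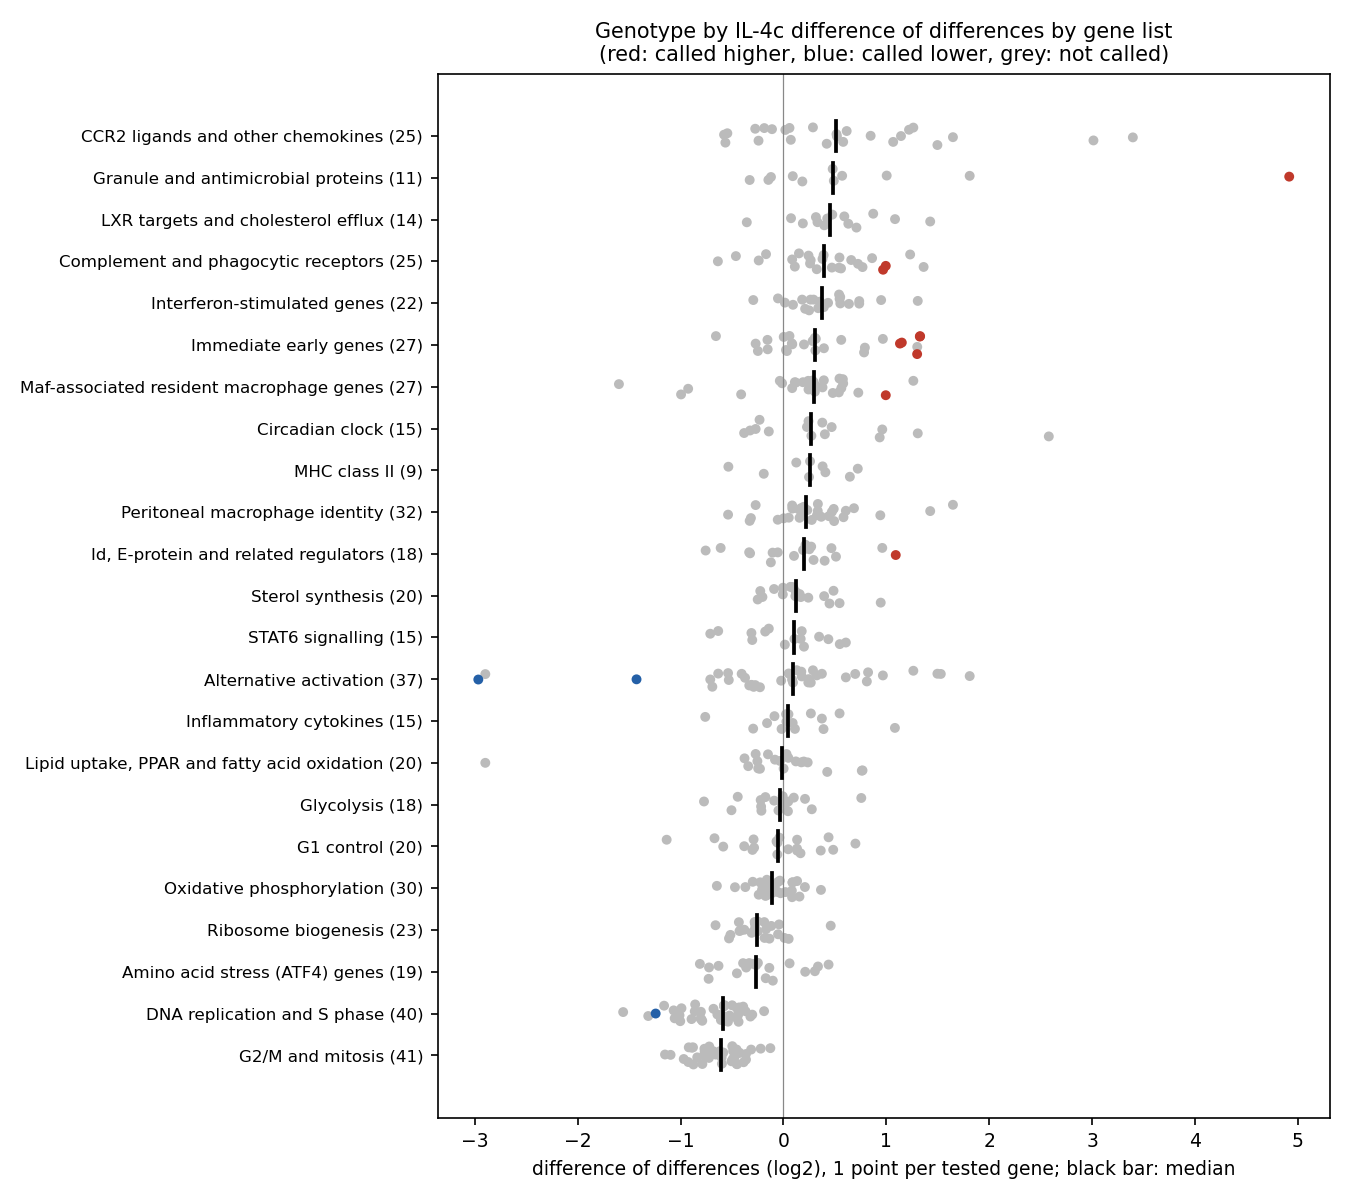
Difference of differences (log2, horizontal axis) of each tested member of 23 gene lists (rows), with called genes marked and the median of each list as a bar. S phase and G2/M members all lie below 0, with medians of -0.59 and -0.61, while 22 of 27 immediate early genes lie above 0.

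The IL-4c arrays labelled Bhlhe40LysM give the IL-4c side of the comparison in other mice, measured against the same IL-4c WT arrays, so they do not test it independently. Of 37 positive genes that were also called higher in IL-4c KO than WT, both LysM arrays lay above both WT arrays in 36 (97.3%), against 24.2% of all tested genes. Of 13 negative genes called lower, both lay below in 12 (92.3%), against 25.4%. The exceptions were Airn and Ccdc180. Plac8 read 7.12 and 9.41 in LysM, P2rx1 9.45 and 9.11, Timd2 3.86 and 5.10 and Ly6a2 4.31 and 6.20. The signal of Bhlhe40 itself was not lower on the LysM arrays, at 8.75 and 8.83, so these directions rest on the label. No naive LysM array was analysed here, and the difference of differences was not formed for that genotype.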

How the data were processed

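RNA from sorted macrophages was hybridised to Affymetrix mouse arrays with a single label. The authors deposited log2 expression per probe set, 1 column for each of 16 arrays and 30177 probe sets. Per the submitters' processing notes RMA was used, which corrects background, quantile-normalizes arrays and summarises probe sets. The RMA version, and whether naive and IL-4c arrays were hybridised or normalized together, the sources used do not give. Such a shift, if it was the same for both genotypes, leaves the difference of differences unmoved.

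Groups came from the sample titles. Probe sets with a single gene symbol (21789) were used, and those with several (1621) or none listed (6767) were not. Gene names and positions follow RefSeq (GRCm38.p6), in which 21698 probe sets matched by Entrez ID. Each of 19938 genes was represented by its probe set with the highest mean, and 11634 genes above the array median on at least 2 of 16 arrays were tested. Near background means a group mean under the mean 95th percentile of 1035 olfactory receptor probe sets (4.37 to 4.68 on the LPM arrays).

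Group means of all 16 arrays (7 groups, 9 residual and 6.61 prior degrees of freedom) were fitted by lmFit and eBayes of limma 3.58.1 under R 4.3.3. The contrast was 2-sided, with Benjamini-Hochberg adjustment over all tested genes and calls at adjusted p under 0.05. The fit was also run on simulated data, with independent noise drawn from the variances of the fit itself. Those data held no shift shared by the genes of an array, so the run cannot show how such shifts act on the calls. Named genes are a fixed set of regulators and IL-4 genes, the 20 largest called values in each direction (17 negative genes were called), called members of 30 gene lists and the extremes of each list; others are said to be chosen after their values were seen. Predicted and numbered symbols are not named. The comparison, its genes and the lists were chosen with earlier results of these data known. Lists are described by counts and medians with no test. Promoters came from the RefSeq table of sequences before each gene's start and were searched over 250 bases. Plots used matplotlib 3.10.9 under Python 3.11.15.

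Alternatives changed 1 choice at a time, except that limma's trend and robust options were switched on together: quantile normalization applied again, array-median centring, 2 other dim-gene filters (none, or the olfactory receptor percentile), averaging probe sets, those 2 options, fits of the 10 arrays or the 12 LPM arrays alone, array weights, the replicate number as a block, and omission of each array. Centring on the median of tested genes, and list medians without each array, were added after seeing the data.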

Additional observations from a re-analysis of the deposited data

Results flagged for a closer look

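A difference of differences is itself a test of whether 1 contrast differs between 2 states, so every called gene meets the rule for a closer look. They number 47 with a higher KO minus WT difference in IL-4c than in naive LPM and 17 with a lower one. The named genes with a higher one, on the log2 scale, were Plac8 (4.92), Tnxb (2.64), Hcar2 (2.45), Neurl3 (2.45), Hgf (2.24), Itga9 (1.94), Csf3r (1.92), Rassf2 (1.84), P2rx1 (1.78), Rnf144b (1.72), Ece1 (1.71), Dmpk (1.64), Airn (1.63) and Ifi207 (1.58), followed by Mmp27 (1.53), Nedd4 (1.50), Rhob (1.48), Trarg1 (1.46), Igsf6 (1.42), Dock4 (1.39), Dusp1 (1.33), Ier3 (1.33), Jun (1.30), Zfp36 (1.15), Nfkbiz (1.13), Cebpa (1.09), C1qa (0.99) and Fcgr3 (0.97). Those with a lower one were Dennd2c (-1.0), Tmc3 (-1.08), Orc1 (-1.13), E2f7 (-1.20), Ccne1 (-1.24), Ccdc180 (-1.25), Traf3ip3 (-1.30), Plin1 (-1.33), Irs1 (-1.42), Ercc6l (-1.42), Arg1 (-1.43), Cd300lf (-1.48), Parm1 (-2.19), Mall (-2.73), Timd2 (-2.97) and Ly6a2 (-4.20). No LPM group holds 4 arrays, so single arrays were not tested for standing apart, and no explanation of these values was tested.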

How the results depend on the processing

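The 64 calls were most open to the choice of arrays. Leaving out 1 array gave 20 (without IL-4c WT replicate 2) to 124 (without IL-4c KO replicate 2) calls, with 33 without IL-4c KO replicate 1 and 37 without naive WT replicate 2; the 20 were all among the 64. The intensity trend with robust variance gave 109 calls and the fit of the 12 LPM arrays 38. Second quantile normalization, centring on array medians, both other dim filters, mean probe sets, array weights and the 10 arrays alone gave 60 to 73, and centring on the median of tested genes, added after seeing the data, 70. Like totals did not mean the same genes. The 10 arrays alone gave 66 calls, of which 47 were among the 64, whereas the other settings of this group shared 56 to 63 with the 64. Positive calls were 73.4% of the total, and 54.8% without IL-4c WT replicate 1. The cause of these shifts was not tested. Of 44 named called genes, 14 were called under all 21 alternatives (Csf3r, Ece1, Hgf, Ier3, Igsf6, Ly6a2, Nedd4, Neurl3, P2rx1, Parm1, Plac8, Rassf2, Timd2 and Tnxb), 30 lost the call under at least 1, and 0 changed sign. Some lost it often. The call held under 8 of 21 for Airn, Dmpk and Nfkbiz, 9 for C1qa, Rhob and Trarg1, and 10 for Dennd2c. Ccdc180 kept it under 9 of 20. Of the 11 alternatives other than leaving out 1 array, Dmpk lost the call under 5, and C1qa, Dennd2c and Nfkbiz under 4.

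Leaving out 1 array gave 75 to 240 calls for KO minus WT in naive LPM, 84 to 486 in IL-4c LPM, 3487 to 4904 for the IL-4c response of WT and 2787 to 4302 for that of KO. Array weights gave 419 calls in naive LPM. Higher calls made up 28.3% in naive LPM but 45.6% after a second quantile normalization and 44.0% after centring on tested genes, which also moved the IL-4c responses from 53.5% to 44.2% in WT and from 58.8% to 46.5% in KO. The titles number replicates in each group, but same-numbered arrays deviated together at r of -0.139 to 0.066 in naive and 0.115 in IL-4c LPM, so the numbers were not taken as pairs. With the replicate block 96 genes were called, 57 of them among the 64, and the IL-4c response of KO had 2827 calls.

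With 2 arrays in each IL-4c group, leaving out 1 leaves a single array assumed to vary like the others. Signals below the array medians and near the top of the range are compressed, which limits the size of differences that start or end there.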
